A study of Mus musculus with 13 samples.

Results

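The loop of Henle nuclei of developing and adult mouse kidney were compared for open chromatin. They are the nuclei that the authors' deposited annotation places in its LOH cluster, 3628 of 28316 nuclei, and the rule used no measurement of stage. Single-nucleus ATAC-seq, in which a transposase cuts accessible DNA in isolated nuclei and a droplet barcode marks each nucleus, was done on whole mouse kidneys at P0 (2 samples), postnatal day 21 (1 sample) and postnatal day 56 (2 samples). The P21 and P56 samples are called adult here, as in the study. The cluster held 635 and 652 nuclei in P0 samples 1 and 2, 394 in the P21 sample, and 1042 and 905 in P56 samples 1 and 2.

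The labels name no strain, transgene or drug for any group. They give P0 as the age, while their protocol describes 1-day-old mice. The adult mice were perfused before the kidneys were taken and the P0 mice were not, so handling and stage cannot be told apart. The labels do not give the sex of the mice or say whether a sample pooled animals, so p-values measure the spread between these 5 samples. Summed over the Y-linked genes Uty, Ddx3y, Eif2s3y and Kdm5d, the loop nuclei had 227 and 277 open calls in the P0 samples, 121 in P56 sample 1, and 0 in the P21 sample and P56 sample 2. The part of this difference in the results was not tested, but the counts of peaks, genes and list members between P0 and the adult were repeated with P56 sample 1 as the only adult sample. The motif shares, the place of P21 and the comparisons with other cell types were not repeated that way.

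The loop of Henle is the hairpin segment of the nephron that lies between the proximal and the distal tubule. Its thick ascending limb reabsorbs sodium chloride through the apical cotransporter NKCC2 (Slc12a1) without letting water follow, which dilutes the urine and drives the countercurrent multiplication that later concentrates it. A plaque of cells at its end, the macula densa, senses luminal chloride and controls renin release and filtration. The newborn mouse kidney still forms nephrons, and its loops lengthen and gain concentrating capacity after birth.

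At both stages the cluster ranked high for the markers of its label. The authors assigned cell types from accessibility at known markers, with Slc12a1 and Umod for the loop of Henle. The ranks of those genes are therefore not an independent check. Among 14 clusters with at least 20 nuclei at P0, LOH ranked 1 in gene activity for Slc12a1, Umod, Cldn19 and Egfl6, and it ranked 2 for Irx1, behind the PT2 cluster (34.1 against 40.6 CPM, open calls per 1000000 of summed gene activity, pooled over the samples of a stage). Slc12a1 stood at 81 CPM in LOH nuclei at P0, and the next cluster, DCT, at 40.5. In adult LOH nuclei Slc12a1 stood at 298 CPM, against 112 in the next cluster, and LOH ranked 1 of 15 clusters for all 5 markers. The margin was narrow for Cldn19, at 85.1 CPM in adult LOH nuclei against 84.7 in the NP_LOH cluster, and at 67.2 against 63.6 in PT2 at P0.

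The depth per nucleus differed with stage. The median LOH nucleus had 6567 and 7430 open peaks in the P0 samples, 3084 in the P21 sample, and 2496 and 4477 in the P56 samples. The stages did not overlap (6998 ± 610.2, SD, n = 2, against 3352 ± 1017, n = 3), with an exact two-sided permutation p of 0.1, the smallest that 10 groupings of 2 against 3 samples allow. The cluster took 10.6% and 12% of nuclei at P0 and 11.7%, 14.6% and 14.1% in the adult samples, which overlapped (exact permutation p = 0.3). Open calls summed over the LOH nuclei ranged from 1563216 (P21) to 5038740 (P0 sample 2).

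A set of 6 regions whose opening differed most between the stages, or which lie in the genes that the results turn on, shows the sequence behind the comparison. Each line gives the central 300 bases of a peak on the plus strand of mm10 (GRCm38), read from the RefSeq genome, and capitals mark matches to the transcription factor motifs described further on. The first is distal and closest to Lhx1, and the second lies beyond Uncx. Both had open calls in P0 nuclei and few or none in adult nuclei.
Lhx1 distal region, chr11:84659469-84659768 (capitals mark RBPJ, then HNF1): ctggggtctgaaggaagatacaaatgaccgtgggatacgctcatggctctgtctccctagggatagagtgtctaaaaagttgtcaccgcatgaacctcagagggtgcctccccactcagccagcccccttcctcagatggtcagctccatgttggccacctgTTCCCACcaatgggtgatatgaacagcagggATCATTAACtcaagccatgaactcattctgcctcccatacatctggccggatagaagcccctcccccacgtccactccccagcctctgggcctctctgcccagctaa
Uncx distal region, chr5:139555013-139555312 (no motif match): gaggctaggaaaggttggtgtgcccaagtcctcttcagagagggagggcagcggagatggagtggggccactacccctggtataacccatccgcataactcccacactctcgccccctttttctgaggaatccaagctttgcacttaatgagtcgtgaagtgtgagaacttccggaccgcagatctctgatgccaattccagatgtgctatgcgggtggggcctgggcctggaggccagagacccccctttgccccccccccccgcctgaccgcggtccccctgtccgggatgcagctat
The others were higher in the adult. They lie upstream of Egf, in an intron of Pdilt upstream of Umod, in an intron of Slc12a1 and in an intron of Ppargc1a.
Egf upstream region, chr3:129767348-129767647 (capitals mark an NFI motif): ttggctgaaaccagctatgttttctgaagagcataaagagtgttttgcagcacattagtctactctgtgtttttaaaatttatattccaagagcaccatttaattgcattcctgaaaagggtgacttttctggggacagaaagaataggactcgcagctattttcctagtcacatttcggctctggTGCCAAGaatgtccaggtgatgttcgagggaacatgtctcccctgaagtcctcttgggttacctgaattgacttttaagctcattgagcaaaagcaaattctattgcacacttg
Pdilt intron, chr7:119490375-119490674 (capitals mark AP-1, then an NFI motif): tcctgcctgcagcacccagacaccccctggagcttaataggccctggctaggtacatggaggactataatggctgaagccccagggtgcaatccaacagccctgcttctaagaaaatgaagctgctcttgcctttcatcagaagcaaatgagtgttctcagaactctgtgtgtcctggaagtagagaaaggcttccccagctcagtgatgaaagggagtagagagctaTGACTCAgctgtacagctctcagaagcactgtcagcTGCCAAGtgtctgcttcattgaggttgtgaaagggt
Slc12a1 intron, chr2:125158812-125159111 (capitals mark ESRR, then GRHL): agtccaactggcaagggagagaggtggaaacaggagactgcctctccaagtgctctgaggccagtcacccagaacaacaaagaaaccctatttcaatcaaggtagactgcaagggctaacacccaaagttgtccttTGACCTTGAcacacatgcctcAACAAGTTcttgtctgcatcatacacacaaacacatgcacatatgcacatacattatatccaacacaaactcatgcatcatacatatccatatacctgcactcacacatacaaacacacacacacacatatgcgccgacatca
Ppargc1a intron, chr5:51537426-51537725 (capitals mark GRHL): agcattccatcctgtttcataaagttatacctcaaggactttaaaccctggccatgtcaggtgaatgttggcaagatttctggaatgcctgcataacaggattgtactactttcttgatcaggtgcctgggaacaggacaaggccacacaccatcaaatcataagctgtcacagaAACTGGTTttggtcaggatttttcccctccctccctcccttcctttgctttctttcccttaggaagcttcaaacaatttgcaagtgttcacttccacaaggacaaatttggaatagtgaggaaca

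Loop nuclei lost and gained open chromatin on a wide scale between P0 and the adult. With edgeR at an adjusted p of 0.05, P0 was the higher stage at 26832 of 89743 tested peaks (29.9%) and the adult at 21929 (24.4%). The larger changes were more often on the P0 side: 6796 peaks were at least 8-fold higher at P0 and 1933 were at least 8-fold higher in the adult. The adult side held 45% of the called peaks with TMM scaling, and 32.3% when samples were scaled by their total open calls, which moved the median of all peaks from -0.11 to -0.41 on the log2 scale. It held 31.1% with no filter on low counts. When every nucleus was thinned to 1000 open peaks the adult side was the larger one, with 2358 peaks against 2263 of 19097 tested (51%).

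In the main fit, peaks higher at P0 lay farther from start sites. Their median distance to a start site was 17143 bp, against 8772 bp for peaks higher in the adult and 9109 bp for peaks not called. Of the P0 peaks 29.5% were distal and 37.9% intronic, and of the adult peaks 20.3% were distal and 43.6% intronic. A start site lay under 16.4% of the P0 peaks, 22% of the adult peaks and 21.4% of those not called. These distances and shares were not repeated with thinned nuclei or equal numbers of nuclei. The part of the depth per nucleus in them was not tested.

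The most strongly changed P0 peaks had few or no open calls in adult nuclei. A nucleus without a call held no fragment there, which does not show that the site was closed. The printed Uncx region was open in 9.45% and 10.9% of P0 nuclei and in 0 of 2341 adult nuclei, which allows a share of up to 0.128% and makes it at least 33.3-fold lower in the adult. Uncx encodes a homeobox factor of nephron progenitors, and the region lies 11264 bp beyond its start. The printed Lhx1 region, 134083 bp upstream of the start of Lhx1, was open in 13.2% and 14.9% of P0 nuclei, in 0.096% of nuclei in P56 sample 1 and in 0 nuclei of the other adult samples. It fell by 6.85 ± 0.60 (SE) on the log2 scale (adjusted p = 2.02e-09), and a neighbour 135689 bp upstream of Lhx1 fell by 7.22 ± 0.57 (adjusted p = 5.19e-10). Lhx1 is a LIM homeobox factor of the early nephron. An intronic peak of the calcium channel subunit gene Cacna2d2 was open in 8.82% and 11.8% of P0 nuclei and 0 adult nuclei (at least 33.8-fold lower). The other 6 of the 10 P0 peaks chosen by the same size rule, among them peaks nearest to Atp8a1, Syndig1l and Haao, fell by 6.03 to 6.87.

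Of the 10 adult peaks with the largest change among those open in at least 10% of adult nuclei and without overlap between the stages, 3 lay near Egf, Gp2 or Umod. The other 7 lay nearest to genes outside the lists, among them Capn2 (log2 5.63 ± 0.40), Epb41l5 (5.51 ± 0.39) and Ghdc, with 2 peaks (5.62 ± 0.40 and 5.50 ± 0.44). The printed region 12181 bp upstream of Egf was open in 1.57% and 3.22% of P0 nuclei and in 45.9%, 37.2% and 58.3% of nuclei of the P21 sample and P56 samples 1 and 2. It rose by 5.41 ± 0.31 on the log2 scale (adjusted p = 6.32e-12), with every adult sample far above both P0 samples. The printed Pdilt region, 11242 bp upstream of the start of Umod, was open in 0.472% and 0.92% of P0 nuclei and in 6.09%, 7.97% and 21.7% of adult nuclei (log2 5.18 ± 0.46, adjusted p = 2.79e-09). A peak 2500 bp upstream of Gp2, which lies beside Umod and encodes a related glycoprotein, was open in 1.1% and 1.38% of P0 nuclei and 23.1%, 22.4% and 45.6% of adult nuclei. The first of the 10 by the fitted value, an X-linked peak nearest to Olfr1324 (log2 5.89 ± 0.88), followed the samples without Y-linked calls instead of stage: it was open in 15.7% and 16% of nuclei in the P21 sample and P56 sample 2, and in 0.288% in P56 sample 1.

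Gene activity, the sum of open calls over the peaks in a gene's body and 2 kb upstream, followed the same division. Of 25692 genes tested, 7519 had more open calls at P0 (29.3%) and 5865 had more in the adult (22.8%). The adult side held 43.8% of the called genes, and 30.6% when scaled by total open calls, which moved the median of all genes from -0.04 to -0.21. Values are TMM-scaled CPM in the order P0 sample 1, P0 sample 2, P21, P56 sample 1, P56 sample 2, and they compare samples within a gene, not genes with each other. The shares of all genes called, higher in the adult and at P0, were 8.91% and 14.1% without P0 sample 1, 10.3% and 18.5% without P0 sample 2, and 10.9% and 16% when thinned, and list counts under those settings stand against these shares. Counts of peaks in gene windows stand against the shares of all tested peaks, 24.4% higher in the adult and 29.9% at P0. The plot of gene lists places each member beside the median of all genes tested.

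**Figure D1:**
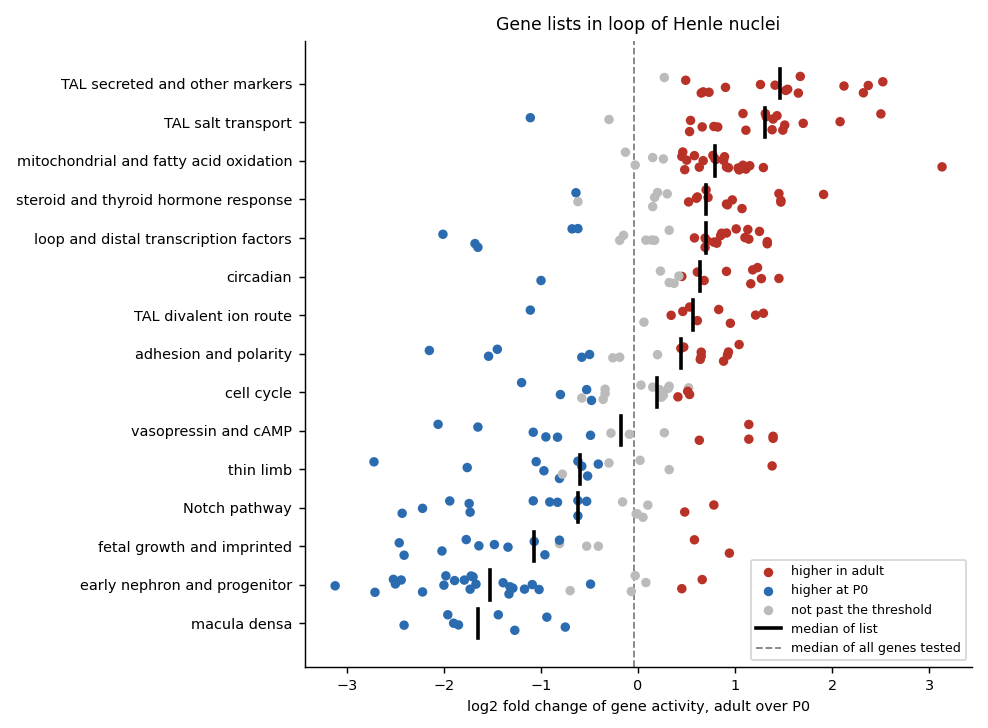
Log2 fold change of gene activity (adult over P0) in loop of Henle nuclei for 15 gene lists. Each point is a gene, red where higher in the adult, blue where higher at P0 and gray where not past the threshold; black bars are list medians, from 1.46 for secreted and other markers of the thick ascending limb to -1.65 for the macula densa, and the dashed line is the median of all genes tested (-0.04).

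The salt transport machinery of the thick ascending limb gained accessibility as a group. Of 19 genes of transport and its regulation, 17 were higher in the adult and 1 at P0, with a median log2 change of 1.31, against 22.8% and 29.3% of all genes. Slc12a1, which lies on mm10 chr2:125152505-125230002, had 66.9 and 83.8 CPM at P0 and 351, 279.7 and 326 in the adult samples. It rose by 2.08 ± 0.15 on the log2 scale (adjusted p = 1.33e-05), and each adult sample was above both P0 samples. Kcnj1, the apical potassium channel ROMK that returns potassium to the lumen for the cotransporter, had 52.6 and 52.1 at P0 and 171, 167 and 173 in the adult (log2 1.70 ± 0.13, adjusted p = 1.33e-05). Fxyd2, the gamma subunit of the sodium pump, had 74.2 and 91.7 at P0 and 465, 468 and 476 in the adult (log2 2.50 ± 0.14, adjusted p = 7.42e-06). Its 3 adult samples lay closer together than its 2 P0 samples.

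Other members of the list are given by role. The sodium pump subunit gene Atp1b1 rose by 1.43 ± 0.13, and Bsnd, which encodes the channel accessory subunit barttin, rose by 1.32 ± 0.17. The sodium-proton exchanger Slc9a3 rose by 1.51 ± 0.13. The member that fell was Kcnma1, the large-conductance calcium-activated potassium channel, with 190.2 and 173 at P0 and 81.6, 90.5 and 79.5 in the adult, which fell by 1.11 ± 0.12 (adjusted p = 6.49e-05). Sgk1, a hormone-induced kinase that regulates sodium transport, did not pass the test over its whole window (log2 -0.30 ± 0.19, adjusted p = 0.196), and did when only the start site and 2 kb upstream were summed (-3.66), without the P21 sample (-0.48, adjusted p = 0.045) or with P56 sample 1 as the only adult sample (-0.40, adjusted p = 0.012).

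The change in Slc12a1 reached across the gene. In the window from 20 kb upstream to the gene's end, 17 of 18 tested peaks were higher in the adult and 0 at P0, against 24.4% and 29.9% of all tested peaks. Its start site was open in 8.82% and 14.1% of P0 nuclei and in 34.8%, 16.6% and 43.2% of adult nuclei (log2 2.53 ± 0.27, adjusted p = 3.34e-08). P56 sample 1, with the fewest open peaks per nucleus, was only just above P0 sample 2 as a share of nuclei, while the fit scales by depth. The printed intronic region went from 3.78% and 5.52% of nuclei to 17.3%, 8.35% and 17.8% (log2 2.70 ± 0.28, adjusted p = 2.16e-08). The Fxyd2 window had 10 of 10 peaks and the Kcnj1 window 12 of 14 higher in the adult.

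Genes listed for the handling of calcium and magnesium in the thick ascending limb were also more often higher than lower in the adult. The changes were smaller. The list holds claudins, which act between cells, beside receptors and other genes. Its counts are therefore not those of the paracellular route alone. Of 10 genes 8 were higher in the adult and 1 at P0 (median log2 0.57), against 22.8% and 29.3% of all genes. The 8 became 4 without P0 sample 1 or without P0 sample 2, 5 without TMM scaling, and 3 when nuclei were thinned to 1000 open peaks each. Cldn16, a claudin that forms the cation pore between cells, rose by 1.29 ± 0.21, and Casr, the calcium-sensing receptor, by 1.21 ± 0.16. Cldn10, whose product forms sodium-selective pores, rose by 0.83 ± 0.13. Cldn19, the partner of Cldn16, rose by 0.53 ± 0.15 (adjusted p = 0.0129), a call that was lost without P0 sample 1 (0.67, adjusted p = 0.057) or P0 sample 2 (0.42, adjusted p = 0.22). Cldn14, which blocks the pore and is induced by calcium sensing, had 40.5 and 39.4 at P0 and 20.7, 19.3 and 16.6 in the adult and fell by 1.11 ± 0.17 (adjusted p = 0.000433).

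Secreted proteins and other markers of the thick ascending limb showed the largest median rise, 1.46 on the log2 scale. Of 16 genes 15 were higher in the adult and 0 at P0, against 22.8% and 29.3% of all genes. Umod, at mm10 chr7:119462711-119479282, encodes uromodulin, the most abundant protein of normal urine. It had 24 and 27.4 CPM at P0 and 121, 142 and 178 in the adult samples (log2 2.52 ± 0.19, adjusted p = 1.33e-05). Egf, at mm10 chr3:129677565-129755316, encodes the epidermal growth factor precursor, and had 80.1 and 74.6 at P0 and 299, 378 and 476 in the adult (log2 2.32 ± 0.18, adjusted p = 1.6e-05). Neither gene's stages overlapped. All 6 tested peaks of the Umod window and all 27 of the Egf window were higher in the adult, and an Egf peak 2330 bp upstream of the start was open in 0 of 1287 P0 nuclei and in 2.79%, 1.63% and 5.19% of adult nuclei (at least 32.8-fold higher).

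The same list held transporters, receptors and signalling genes. Slc5a3, the myo-inositol transporter that loads cells with osmolyte, had 42.2 and 41.2 at P0 and 251, 172 and 225 in the adult (log2 2.37 ± 0.17, adjusted p = 1.33e-05). It overlaps Mrps6, which shares its peaks and rose by 2.52 ± 0.15, so the calls cannot be assigned to either gene. Ppp1r1b rose by 2.12 ± 0.22. Ptger3, a receptor for prostaglandin E2 that opposes vasopressin in this segment, rose by 1.41 ± 0.17. Kng2, a kininogen gene, rose by 1.67 ± 0.15.

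The macula densa genes were higher at P0. All 8 fell and 0 rose, against 29.3% and 22.8% of all genes, with a median log2 change of -1.65. The 8 became 6 with DESeq2, without P0 sample 1 or without P0 sample 2, and 7 without P56 sample 2. Nos1, the neuronal nitric oxide synthase of the macula densa, on mm10 chr5:117781032-117958840, had 118 and 114 CPM at P0 and 31.9, 35.8 and 26 in the adult, and fell by 1.90 ± 0.17 (adjusted p = 2.51e-05). Ptgs2, the cyclooxygenase that supplies prostaglandin for renin release, fell by 1.96 ± 0.35, and Ptges, a prostaglandin E synthase, by 1.27 ± 0.16. With the start site and 2 kb upstream alone, the log2 change of Ptges was -0.03 and did not pass (adjusted p = 0.93). Oxtr, the oxytocin receptor, had 33.1 and 33.2 at P0 and 7.69, 7.43 and 4.59 in the adult, and fell by 2.41 ± 0.25 (adjusted p = 4.56e-05). Pappa2, a protease of growth factor binding proteins, had 42.8 and 38.7 at P0 and 12.4, 14.9 and 7.86 in the adult and fell by 1.85 ± 0.24 (adjusted p = 0.000142).

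Within the Nos1 window 11 of 18 tested peaks fell and 1 rose from P0 to the adult, against 29.9% and 24.4% of all tested peaks. The start site of Nos1 was open in 7.56% and 9.36% of P0 nuclei and in 0.508%, 0.288% and 0.442% of adult nuclei (log2 -3.26 ± 0.43, adjusted p = 9.14e-07). A peak 13745 bp into the gene was open in 3.78% and 4.91% of P0 nuclei and in 0 adult nuclei (at least 14.2-fold lower). Of the 7 tested peaks of the Oxtr window 6 fell and 0 rose. The data come from whole clusters. Fewer macula densa nuclei in the adult, lower accessibility within them and lower accessibility in other loop nuclei cannot be told apart. In the distal convoluted tubule (DCT), 1 of the 8 genes had a stage change that differed past the threshold from that of the loop. The share of all genes was 5.33%. That count was 0 when nuclei were thinned or without P56 sample 2. DCT had 51 and 57 nuclei in the P0 samples, which limits the comparison. Between stage means in DCT, the log2 change was -0.93 for Nos1, -1.40 for Ptgs2, -1.65 for Ptges, -1.49 for Oxtr and -1.23 for Pappa2.

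Of 14 genes of the thin limbs 9 fell (64.3%, against 29.3% of all genes) and 1 rose (7.14%, against 22.8%), with a median of -0.60. The count that fell was 2 without P0 sample 1, a share near the 14.1% of all genes in that fit, 4 without P0 sample 2 and 5 of 11 tested when thinned. Cldn4, a tight junction claudin, fell from 25.3 and 26.5 to 4.14, 3.72 and 3.93 (log2 -2.72 ± 0.26, adjusted p = 3.21e-05). Cryab, a small heat shock protein abundant in the medulla, was the member that rose, from 13.4 and 11 to 31.9, 32.8 and 30.4 (log2 1.38 ± 0.20, adjusted p = 0.000262).

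**Figure D2:**
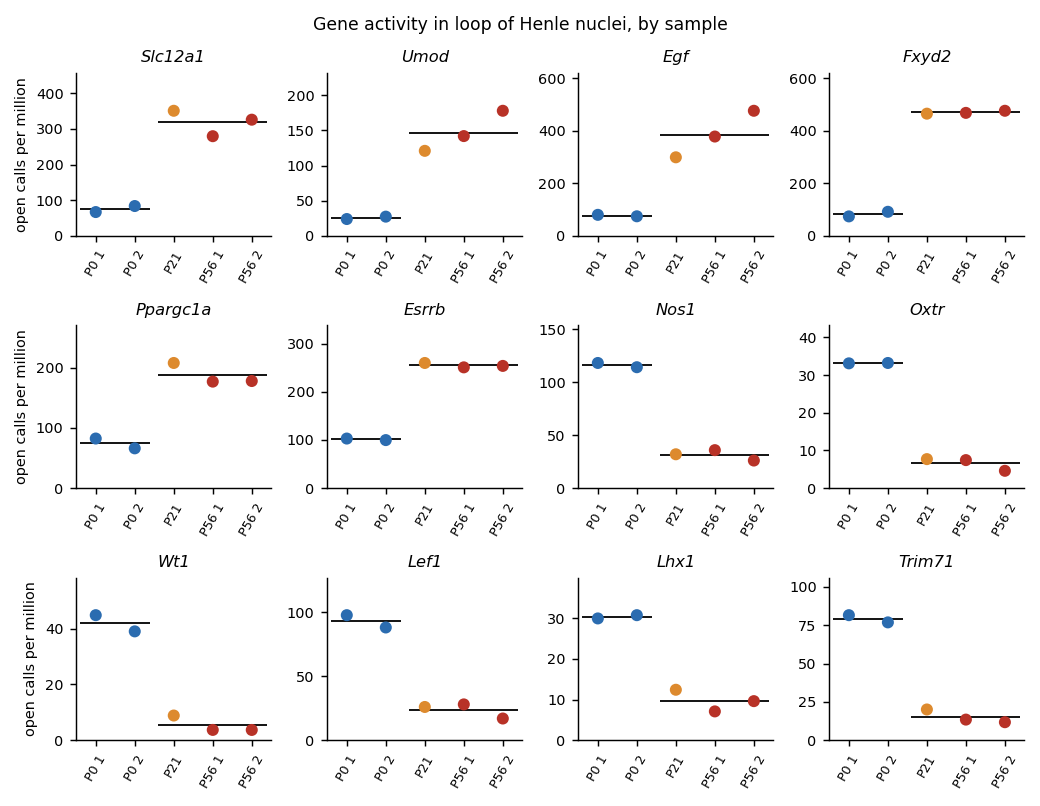
Gene activity in loop of Henle nuclei, in TMM-scaled CPM, for 12 genes in each of the 5 samples. Points are samples, lines are the stage means (n = 2 at P0, n = 3 in the adult), and every axis starts at 0; the adult samples of Slc12a1 lie between 279.7 and 351 and its P0 samples at 66.9 and 83.8, while Nos1 lies at 118 and 114 at P0 and between 26 and 35.8 in the adult.

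Transcription factors used for the loop and the distal nephron rose more often than they fell. Of 28 genes 17 were higher in the adult and 5 at P0 (median log2 0.70), against 22.8% and 29.3% of all genes. Without P0 sample 1 the median was 0.76 and fewer genes passed. Ppargc1a, the coactivator of mitochondrial biogenesis, had 82.4 and 66.1 at P0 and 208, 177 and 178 in the adult (log2 1.33 ± 0.14, adjusted p = 5.32e-05). Its window held 17 of 21 tested peaks higher in the adult and 0 at P0, and the printed intronic region went from 2.2% and 3.37% of nuclei to 12.9%, 8.73% and 13% (log2 3.15 ± 0.29, adjusted p = 5.09e-09).

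The estrogen-related receptors, orphan nuclear receptors that work with that coactivator, differed among themselves. Esrrb had 103 and 99.8 at P0 and 260.1, 251 and 254 in the adult (log2 1.33 ± 0.12, adjusted p = 2.19e-05), and Esrra rose by 1.13 ± 0.17. Esrrg had 269 and 263 at P0 and 302, 331 and 245 in the adult, which overlapped, and did not pass the test (0.14 ± 0.14, adjusted p = 0.422). It was 0.34 and passed with P56 sample 1 as the only adult sample (adjusted p = 0.00025), and it was -0.02 without TMM scaling and -0.04 when thinned, without passing. Of 20 tested peaks of the Esrrb window 12 were higher in the adult and 0 at P0. The peak over the first start site of the gene was open in 4.09% and 3.83% of P0 nuclei and 3.05%, 1.15% and 2.43% of adult nuclei (log2 0.16 ± 0.37, adjusted p = 0.743). Peaks over 2 start sites farther into the gene rose by 2.04 ± 0.24 (adjusted p = 1.65e-07) and 2.00 ± 0.37 (adjusted p = 8.32e-05), and the first of them went from 10.2% and 14% of P0 nuclei to 23.4%, 16.5% and 29.3% of adult nuclei.

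Factors of nephron patterning split. The Iroquois gene Irx2 rose by 1.25 ± 0.17 and Irx1 by 0.81 ± 0.18, and the POU factor gene Pou3f3 rose by 0.85 ± 0.20. When nuclei were thinned, Irx1 was 0.32 and Pou3f3 0.38, and neither passed (adjusted p = 0.44 and 0.31). Pou3f2, a relative of Pou3f3, fell by 2.01 ± 0.35 and Foxa1 by 1.65 ± 0.37. The change of Foxa1 was -1.41 without P0 sample 1 and did not pass. Lhx1 had 29.9 and 30.7 at P0 and 12.4, 7.09 and 9.61 in the adult, and fell by 1.68 ± 0.24 (adjusted p = 0.000221). Pax2 and Pax8, paired-box genes kept from the early nephron into the tubule, did not pass the test (log2 -0.15 ± 0.13 and -0.19 ± 0.13). Without TMM scaling both passed as lower in the adult (-0.32, adjusted p = 0.045, and -0.35, adjusted p = 0.048), and Pax2 also with P56 sample 1 as the only adult sample (-0.29, adjusted p = 0.02).

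Genes of nephron progenitors and early nephrons were higher at P0. Of 28 genes 22 fell and 2 rose (median log2 -1.53), against 29.3% and 22.8% of all genes. When nuclei were thinned 14 of the 23 tested fell, against 16% of all genes. Wt1, a zinc finger gene of progenitors and podocytes, on mm10 chr2:105126529-105173616, had 44.8 and 39 at P0 and 8.87, 3.72 and 3.71 in the adult. It fell by 3.12 ± 0.29 (adjusted p = 2.76e-05), and all 6 tested peaks of its window were higher at P0. Its start site was open in 13.9% and 15.8% of P0 nuclei and in 1.78%, 0.576% and 1.22% of adult nuclei. The progenitor genes Six2, Uncx, Meox1 and Gdnf fell by 2.50 ± 0.33, 2.44 ± 0.27, 2.52 ± 0.47 and 2.22 ± 0.24.

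The same list held signalling genes and further transcription factors. Lef1, a nuclear effector of Wnt signalling, had 97.6 and 88 at P0 and 26, 28 and 17 in the adult (log2 -2.00 ± 0.21, adjusted p = 4.52e-05), with 11 of 12 tested peaks higher at P0. Wnt4, the ligand that turns progenitors into epithelium, fell by 1.79 ± 0.21. Ccnd2, a cyclin, fell by 1.98 ± 0.18. Bmp2 fell by 2.71 ± 0.26, Sox9 by 1.72 ± 0.25 and Sox11 by 1.89 ± 0.22. Sox4, Ccnd1 and Bmp7 did not pass the test (log2 -0.03 ± 0.17, -0.07 ± 0.13 and 0.08 ± 0.12). The members that rose were Fgf9 (0.66 ± 0.13) and Sall1 (0.45 ± 0.16, adjusted p = 0.0304), and Sall1 was lower in the adult when only the start site and 2 kb upstream were summed (-1.48). The Sall1 call was also lost without P0 sample 1 (0.55), P0 sample 2 (0.37), P21 (0.37) or P56 sample 2 (0.39), and with P56 sample 1 as the only adult sample (0.18, adjusted p = 0.19).

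Markers of other cell types moved in the same direction. Over 61 markers of 10 other kidney cell types, 54 were tested, of which 33 fell and 2 rose, with a median of -1.03. The shares of all genes were 29.3% and 22.8%. Without P0 sample 1 the count that fell was 12 and without P0 sample 2 it was 22. Their summed activity was 1452 and 1353 CPM at P0 and 1151, 981 and 1015 in the adult. All 6 stromal markers, 5 of 6 nephron progenitor markers and 5 of 6 podocyte markers were higher at P0. Without P0 sample 1 these counts were 2, 4 and 2, and without P0 sample 2 they were 4, 5 and 2. The 6 nephron progenitor markers are also members of the early nephron list above, so their count is not a separate result. Of the 5 tested intercalated cell markers 2 were higher at P0 and 3 were not called. Among them Foxi1 and Hmx2 stood at 0 in the P21 sample, which had the fewest open calls. Scaled jointly with DCT nuclei, Hmx2 stood at 3.43 and 2.81 CPM in P56 samples 1 and 2. The 8 tested proximal tubule markers summed to 238 and 224 in the P0 samples, 289 in P21, and 99 and 146 in P56. The members higher in the adult were among the 4 distal convoluted tubule markers, of which 2 were higher in the adult and 2 at P0 (median log2 0.04). Slc12a3, the thiazide-sensitive cotransporter, went from 44.6 and 40.6 to 143, 181 and 221 (log2 2.10 ± 0.18, adjusted p = 2.03e-05). The part of stray or mixed nuclei in the lists above was not tested.

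Genes of the Notch pathway, which sets segment fates along the early nephron, were higher at P0 in 11 of 18 cases and in the adult in 2. The median log2 change was -0.62, and the shares of all genes were 29.3% and 22.8%. Without P0 sample 1 fewer passed, with a median of -0.61. Lfng, which modifies Notch receptors with sugars, fell from 60.4 and 55.3 to 13.6, 15.9 and 8.95 (log2 -2.22 ± 0.21, adjusted p = 3.21e-05). The ligand Jag2 fell by 1.94 ± 0.29, the receptor Notch1 by 0.83 ± 0.13 and the target Heyl by 2.43 ± 0.27. Another target, Hes1, rose by 0.78 ± 0.19.

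Fetal growth genes fell in accessibility. Of 17 genes 15 were tested, of which 10 fell and 2 rose (median log2 -1.07), against 29.3% and 22.8% of all genes. H19 and Dlk1 did not pass the filter on low counts. Trim71, a target of the let-7 microRNA and a regulator of developmental timing, had 81.6 and 76.9 at P0 and 20.1, 13.5 and 11.8 in the adult (log2 -2.46 ± 0.20, adjusted p = 1.74e-05). Lin28b, which blocks let-7 maturation, fell by 1.77 ± 0.32, and Hmga2, another let-7 target, by 1.48 ± 0.19. The imprinted growth genes Igf2 and Mest fell by 2.41 ± 0.27 and 2.02 ± 0.25, while Igf1r, the receptor for that growth factor family, rose by 0.94 ± 0.12. Peg3 rose by 0.58 ± 0.16 over its body and was lower in the adult over the start site and 2 kb upstream (-2.06). Its call was lost without P0 sample 1 (0.54, adjusted p = 0.10).

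Few cell cycle genes passed the test. Of 20 genes 3 were higher in the adult (15%, against 22.8% of all genes), 4 at P0 (20%, against 29.3%) and 13 were not called (median log2 0.19). The counts were 0 and 0 without P0 sample 1, 0 and 1 without P0 sample 2, 1 and 2 without P21 or without P56 sample 2, and 7 and 5 without P56 sample 1. Pclaf, a replication factor bound to the sliding clamp, fell by 1.20 ± 0.27 (adjusted p = 0.00397), and did not pass without P0 sample 1 (-1.18, adjusted p = 0.057).

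Genes of mitochondria and fatty acid oxidation rose together. Of 26 genes 22 were higher in the adult and 0 at P0, against 22.8% and 29.3% of all genes. The median was 0.79 on the log2 scale. The 22 became 13 without P0 sample 1, 14 without P0 sample 2 and 8 when nuclei were thinned, with medians of 0.78, 0.79 and 0.72. Perm1, a mitochondrial regulator first described in muscle that acts with the estrogen-related receptors, had 5.41 and 5.12 at P0 and 37.2, 41.9 and 56.6 in the adult (log2 3.13 ± 0.25, adjusted p = 1.59e-05), with no overlap. In the Perm1 window 1 of 5 tested peaks was higher in the adult and 0 at P0, against 24.4% and 29.9% of all tested peaks. The median log2 change of the 5 was 0.05. Pdk4, the kinase that diverts pyruvate from oxidation, rose by 1.15 ± 0.14, and Cpt1a, the entry enzyme of mitochondrial fatty acid oxidation, by 1.11 ± 0.12. Idh2, of the citric acid cycle, rose by 1.08 ± 0.17.

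Hormone-responsive and clock genes rose as well. In the list of steroid and thyroid hormone response, 13 of 19 genes were higher in the adult and 1 at P0 (median log2 0.70). The shares of all genes were 22.8% and 29.3%. The 13 became 8 without P0 sample 1 and 7 when nuclei were thinned. The glucocorticoid-induced genes Zbtb16, Fkbp5, Klf15 and Per1 rose by 1.91 ± 0.14, 1.45 ± 0.16, 1.47 ± 0.15 and 1.47 ± 0.18. Zbtb16 went from 87 and 88.5 CPM to 294, 320.2 and 372. The receptor genes Nr3c1 and Nr3c2 rose by 0.70 ± 0.13 and 0.91 ± 0.12. Of 14 clock genes 9 were higher in the adult and 1 at P0 (median log2 0.64), with Nr1d1, Cry2 and Dbp rising by 1.45 ± 0.18, 1.23 ± 0.14 and 1.18 ± 0.17 and Npas2 falling by 1.00 ± 0.16. The labels do not give the hour at which the kidneys were taken.

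Hormone receptors and cAMP signalling split by member. Of 14 genes 5 were higher in the adult (35.7%, against 22.8% of all genes) and 6 at P0 (42.9%, against 29.3%), with a median log2 change of -0.18. The counts were 3 and 3 without P0 sample 1 and 3 and 5 without P0 sample 2. Avpr2, the vasopressin receptor coupled to cAMP, went from 4.76 and 4.24 to 8.87, 11.8 and 13.5 (log2 1.39 ± 0.32, adjusted p = 0.00432). The glucagon receptor gene Gcgr and the cyclase gene Adcy6 both rose by 1.14 ± 0.13. Calcr, the calcitonin receptor, went from 7.36 and 6.89 to 3.55, 2.03 and 0.655 (log2 -2.06 ± 0.50, adjusted p = 0.00523), and the phosphodiesterase gene Pde3a fell by 1.65 ± 0.26. Without P0 sample 1 the calls of Avpr2 (1.47, adjusted p = 0.06) and Calcr (-1.92, adjusted p = 0.069) were lost, as was that of Avpr2 without P0 sample 2 (1.29, adjusted p = 0.076).

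Of 17 genes of epithelial adhesion and polarity 9 were higher in the adult (52.9%, against 22.8% of all genes) and 5 at P0 (29.4%, against 29.3%), with a median log2 change of 0.44. The counts were 6 and 3 without P0 sample 1, 5 and 2 without P0 sample 2, 8 and 3 without P21, and 3 and 3 with the start site alone, where the median was -0.07. Its cadherins Cdh1 and Cdh2 both passed the test. Cdh1, E-cadherin of mature tubules, rose from 101 and 115 to 193, 199 and 221 (log2 0.92 ± 0.13, adjusted p = 0.000197). Cdh2, N-cadherin, fell from 90 and 70.1 to 36.1, 13.2 and 10.9 (log2 -2.15 ± 0.35, adjusted p = 0.000555), and the P21 sample stood between the P0 and the P56 samples.

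Outside the lists, the protein-coding genes with the largest changes were found by a size rule. On the adult side the first was Gp2, with 4.54 and 5.12 at P0 and 62.7, 90.2 and 105 in the adult (log2 4.16 ± 0.27, adjusted p = 1.15e-05). It was followed by Sult1d1, a cytosolic sulfotransferase (3.69 ± 0.21), Lrit3 (3.44 ± 0.21), the tissue kallikrein Klk1 (3.08 ± 0.26), Lrrc52, a channel accessory protein (2.51 ± 0.18), and Defb1, a beta-defensin secreted into urine (2.39 ± 0.20). Lrit3 lies beside Egf and overlaps another coding gene. On the P0 side the first was Rspo1, which enhances Wnt signalling, with 39 and 34.5 at P0 and 4.14, 1.01 and 1.53 in the adult (log2 -4.27 ± 0.35, adjusted p = 1.71e-05). Ccdc8, the claudin Cldn9, the synaptic vesicle gene Sv2b and Tmem132c fell by 3.97 ± 0.35, 3.47 ± 0.26, 3.41 ± 0.34 and 3.39 ± 0.23. The genes 4933407L21Rik, Gm15737 and Msl3l2, each overlapping another coding gene, fell by 3.75 ± 0.32, 3.69 ± 0.29 and 3.64 ± 0.24. The histone genes Hist1h2bf and Hist1h3d share their peaks and both fell by 3.29 ± 0.28.

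Changed peaks differed in sequence. Each of 15 short motifs was searched on both strands in the central 300 bases of 26824 peaks higher at P0, 21923 higher in the adult and 40945 not called. The estrogen-related receptor motif TCAAGGTCA, found in the printed Slc12a1 region, was in 2.27% of adult peaks (95% Wilson interval 2.08% to 2.48%), 0.414% of P0 peaks (0.344% to 0.498%) and 0.816% of peaks not called, and in 1.05% of all tested peaks. The NFI motif TGCCAAG, found in the printed Egf and Pdilt regions, was in 9.58% of adult peaks (9.2% to 9.98%), 5.89% of P0 peaks (5.61% to 6.18%) and 7.16% of all. The Grainyhead motif AACNNGTT, found in the printed Slc12a1 and Ppargc1a regions, was in 5.81% of adult peaks, 4.31% of P0 peaks and 4.95% of all. In the same order, the TEAD motif ACATTCCA was in 2.64%, 1.8% and 2.13%, and the steroid receptor motif ACANNNTGT in 9.01%, 7.96% and 8.4%. The ETS motif ACCGGAAGT was in 0.397%, 0.157% and 0.33%. In distal and intronic peaks alone ETS was in 0.0643% of adult and 0.122% of P0 peaks. Intervals cover counting error only, and neighbouring peaks are not independent.

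On the P0 side the TCF/LEF motif ATCAAAG was in 5.23% of P0 peaks (4.97% to 5.51%), 3.38% of adult peaks (3.15% to 3.63%) and 4.18% of all. The Six2-family motif TCANGTTTC was in 1.67% of P0 peaks, 1.26% of adult peaks and 1.4% of all, and the RBPJ motif GTGGGAA in 7.97%, 6.55% and 7.13%. The SOX motif ACAATGG was in 3.71% of P0 peaks, 3.05% of adult peaks and 3.32% of all. The HNF1 motif GTTAATNAT, found in the printed Lhx1 region, was in 2.22% of P0 peaks and 2.01% of adult peaks, and the AP-1 motif TGANTCA in 9.21% and 9.24%, with intervals that overlapped. The GC content of the windows was similar in the classes. A match marks letters in the window and does not show that a factor binds there.

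**Figure D3:**
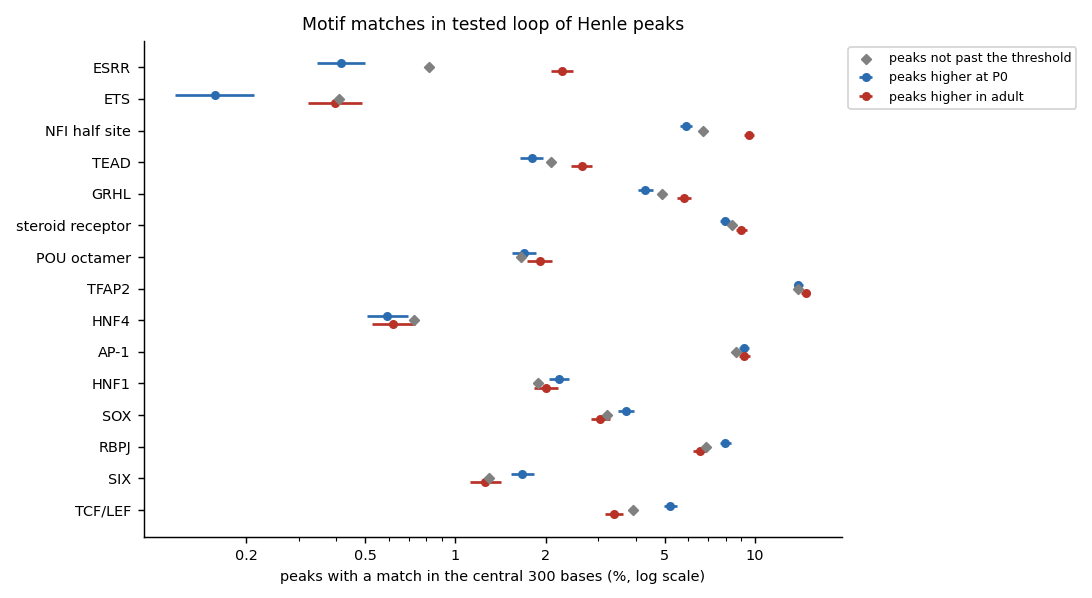
Share of tested loop of Henle peaks with a motif match in the central 300 bases (percent, log scale), for 15 motifs. Blue points are peaks higher at P0, red points peaks higher in the adult, gray diamonds peaks not past the threshold, and lines are 95% Wilson intervals; the ESRR motif stands at 2.27% in adult peaks and 0.414% in P0 peaks, and TCF/LEF at 3.38% and 5.23%.

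The P21 sample stood near P56 in the loop. Peaks were called between P0 and P56 alone, so the values of those 4 samples chose them and only P21 is a new measurement. At 26942 peaks higher at P0, the P0 samples had summed shares of open calls of 18.1% and 17.3%, P21 6.18%, and the P56 samples 5.34% and 4.78%, which put P21 91.1% of the way from the P0 to the P56 mean. At 20709 peaks higher at P56, the P0 samples had 19.4% and 21%, P21 43.2%, and the P56 samples 47% and 56.3%, which put P21 73.3% of the way. Single peaks were past the midpoint towards P56 in 69.3% of the first set and 81.7% of the second. The shares divide by each sample's open calls over all peaks times its TMM factor, which was fitted on the tested peaks alone. They are therefore not on the scale of the fits, and no other scaling was tried for them. With 1 sample at P21, its position has no replicate check.

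**Figure D4:**
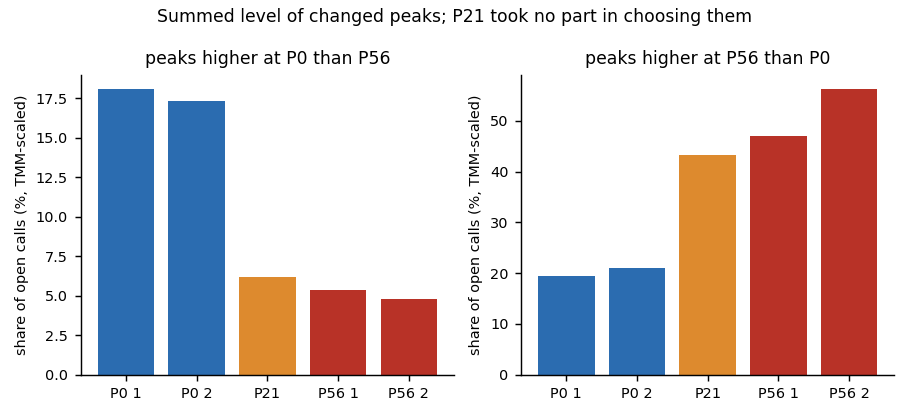
Summed open calls of loop of Henle nuclei, as a percent of each sample's TMM-scaled total, at peaks higher at P0 than P56 (left) and higher at P56 than P0 (right). Bars are samples, blue for P0, orange for P21 and red for P56, and P21 took no part in choosing the peaks; it stands at 6.18% on the left and 43.2% on the right.

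The loop's stage change was set against those of the distal convoluted tubule (DCT, 950 nuclei) and the proximal convoluted tubule (PCT, 7412 nuclei). With the interaction of stage and cell type as the test, the loop's stage change differed from both. Against DCT it differed at 1381 of 68974 peaks (2%) and for 1313 of 24641 genes (5.33%). Against PCT it differed at 22886 of 117678 peaks (19.4%) and for 9356 of 27139 genes (34.5%). DCT had 51 and 57 nuclei in the P0 samples, so the pair of counts does not compare DCT and PCT at equal depth.

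The salt transport genes changed more in the loop than in DCT for 11 of 19 genes and less for 0. The shares of all genes were 2.65% and 2.68%. The 11 became 7 without P56 sample 2 and 0 when nuclei were thinned. In those fits 0.809% and 0.0411% of all genes had a higher change in the loop. The count was also lower without either P0 sample. Among the fits that left out a sample it was lowest without P0 sample 1. Slc12a1 in DCT stood at 38 and 39 CPM at P0 and 36.5, 36 and 32.5 in the adult, and its change was larger in the loop by 2.25 ± 0.32 (adjusted p = 1.24e-05). Fxyd2 rose in both and by 1.63 ± 0.18 more in the loop. Cldn16 and Cldn19 differed by 2.43 ± 0.61 and 2.01 ± 0.29. Umod, which rose in both clusters, did not differ past the threshold (-0.67 ± 0.57, adjusted p = 0.617). When nuclei were thinned to 1000 open peaks the DCT differences of Slc12a1, Fxyd2 and Cldn16 were 2.08, 1.16 and 1.33 and no longer passed (adjusted p = 0.51, 0.37 and 0.93). Cldn16 also lost the call without P0 sample 1 (2.47), P0 sample 2 (2.38) or P56 sample 2 (1.95).

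Lhx1 and Nos1 had a lower stage change in the loop than in DCT. Lhx1 in DCT had 52.3 and 36.8 at P0 and 63.2, 59.3 and 63.9 in the adult, and the change was 2.19 ± 0.28 lower in the loop (log2 difference -2.19, adjusted p = 2.15e-06). Nos1 was lower in the adult of both clusters, with a log2 difference of -1.09 ± 0.20 (adjusted p = 0.000342). Under thinning the differences were -1.85 for Lhx1 and -1.64 for Nos1, and neither passed (adjusted p = 0.28 and 0.25). Nos1 also lost the call without P56 sample 2 (-0.81, adjusted p = 0.096). Of the 8 macula densa genes 1 fell more in the loop than in DCT, against 2.68% of all genes with a lower change in the loop.

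Against PCT, 15 of 19 salt transport genes, 14 of 16 secreted and other markers and 17 of 26 mitochondrial and fatty acid oxidation genes rose more in the loop, and 2, 0 and 0 less. Of all genes 15.6% had a higher and 18.9% a lower stage change in the loop than in PCT. The 17 became 5 when thinned, where 6.4% of all genes had a higher change in the loop. The count was also lower without either P0 sample. Against DCT, 6 of the 16 secreted and other markers and 1 of the 26 mitochondrial and fatty acid oxidation genes rose more in the loop. The count that rose less was 0 in both lists. Of all genes 2.65% had a higher and 2.68% a lower change in the loop than in DCT. Slc12a1, Bsnd, Umod and Egf had larger changes in the loop than in PCT by 2.51 ± 0.31, 3.53 ± 0.20, 1.61 ± 0.26 and 2.45 ± 0.16. Perm1 in PCT stood at or under 2.46 CPM in every sample, and its change was larger in the loop by 4.74 ± 0.65 (adjusted p = 0.000157). For 14 of 28 early nephron genes the log2 stage change was lower in the loop than in PCT, and for 1 it was higher, against 18.9% and 15.6% of all genes. The 14 became 6 of 25 tested when thinned, where 8.96% of all genes had a lower change in the loop. The count was also lower without either P0 sample. Against DCT the log2 stage change was lower in the loop for 3 of the 28 early nephron genes and higher for 0. The 3 became 0 of 22 tested when thinned, where 0.223% of all genes had a lower change. Cdh2 rose in PCT from 67.5 and 65.9 to 135, 115 and 92.1, so its log2 difference was -2.95 ± 0.25 (adjusted p = 5.79e-06).

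**Figure D5:**
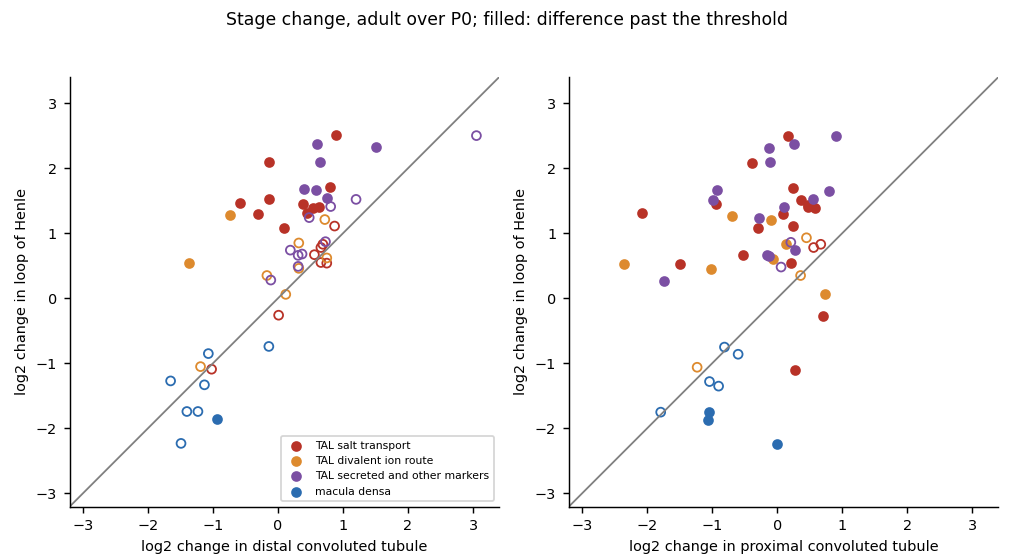
Log2 stage change (adult over P0) of gene activity in loop of Henle nuclei (vertical) against distal convoluted tubule nuclei (left) and proximal convoluted tubule nuclei (right), for 4 gene lists. Each point is a gene, filled where the difference between the cell types passed the threshold, and the line marks equal change; 11 of 19 salt transport genes lie above the line and are filled on the left, and 15 on the right.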

How the data were processed

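The authors aligned reads to mm10 with Cell Ranger ATAC 1.1.0, filtered and clustered nuclei with SnapATAC and Harmony, called peaks per cell type with MACS2 on pooled nuclei of all samples, and merged them. The deposited matrix of 28316 nuclei by 300755 peaks holds counts capped at 1, so an entry says whether a nucleus had a fragment in a peak. It carries 89197 stored zeros, which were ignored. Other deposited tables (single-cell RNA and plotting coordinates) were not used here.

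Open calls were summed over LOH nuclei per sample. Gene activity summed the peaks overlapping a GENCODE gene body or 2 kb upstream. P0 and adult samples (2 against 3) were compared with edgeR 4.0.16 (R 4.3.3), using the quasi-likelihood test, TMM scaling, a minimum count of 10 and total of 15, and Benjamini-Hochberg adjustment at 0.05 over all features tested. SE is the log2 change divided by the square root of its F statistic. The interaction with DCT or PCT kept the sample as a block. Alternatives included DESeq2 1.42.0, other scalings and filters, thinning to 1000 open peaks per nucleus, equal numbers of nuclei (394 per sample), the start site alone and leaving out each sample.

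The gene lists and the nuclei were chosen with earlier results of these data known. Outside the lists, the text names genes and peaks from the 10 protein-coding genes and 10 peaks per direction with the largest called change whose samples did not overlap and that had at least 20 open calls per 100 nuclei (genes) or were open in at least 10% of nuclei (peaks) at the higher stage, and from the cell type comparisons some genes of the lists and of the same rule. Of the loop nuclei 16 share a barcode with a nucleus of another library. No doublet search was made. The values of some genes are not reported here. Total open calls per sample were 4237673 and 5038740 (P0), 1563216 (the P21 sample) and 2839028 and 4382528 (P56), and intervals and floors (3 counts) cover counting error only. Sequences were read from the RefSeq genome of GRCm38.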

Additional observations from a re-analysis of the deposited data

Results flagged for a closer look

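The values below are described without an explanation, which was not tested. By the interaction test, the stage change of the loop nuclei differed from those of DCT and PCT. Against DCT it differed at 1381 peaks and for 1313 genes. By gene, the adult over P0 change was larger in the loop by 2.25 for Slc12a1, 1.63 for Fxyd2, 2.43 for Cldn16, 2.01 for Cldn19 and 2.77 for Pcsk6, a proprotein convertase, on the log2 scale. Pcsk6 stood at 99.8 and 62.8 CPM in DCT at P0 and at 21.9, 24.4 and 19.5 in the adult, while in the loop it went from 119 and 109 to 133, 201 and 215. Its difference was 1.83 and did not pass when nuclei were thinned to 1000 open peaks (adjusted p = 0.47). The log2 difference was -2.19 for Lhx1, -1.09 for Nos1 and -2.96 for the adhesion gene Cntn3. Cntn3 went from 54.2 and 40.2 to 12, 11.7 and 5.41 in the loop, and from 49.9 and 41.2 to 63.2, 68.9 and 60 in DCT.

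Against PCT it differed at 22886 peaks and for 9356 genes. The log2 difference was 2.51 for Slc12a1, 3.53 for Bsnd, 1.61 for Umod, 2.45 for Egf, 4.74 for Perm1, 4.42 for the keratin Krt7 and 3.01 for Hk1, the hexokinase of the distal nephron. It was -2.95 for Cdh2 and -2.98 for the connexin Gja1. Hk1 rose from 111 and 114 to 265, 275 and 299 in the loop, and in PCT went from 37 and 39.1 to 12.8, 12.3 and 10.7.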

How the results depend on the processing

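Counts depended on depth and on the number of P0 samples. Peaks higher in the adult and at P0 numbered 13663 and 15462 with DESeq2 (15.2% and 17.2% of 89743 tested). With equal numbers of nuclei they numbered 12125 and 13528 (24.2% and 27% of 50039 tested), beside 24.4% and 29.9% in the main fit. With nuclei thinned to 1000 open peaks they numbered 2358 and 2263 (12.3% and 11.9% of 19097). Genes numbered 1961 and 2873 when thinned (10.9% and 16% of 18010). Among protein-coding genes only there were 3812 and 4754 (22.7% and 28.3% of 16796), beside 22.8% and 29.3% in the main fit. Genes higher in the adult numbered 3848 without TMM (15%) and 3763 with the start site alone (19.1% of 19695). Leaving out each sample gave 10549 to 21974 adult and 13972 to 26942 P0 peaks, and 2307 to 7879 adult and 3662 to 8381 P0 genes, with the lowest values without P0 sample 1. Without P0 sample 2 there were 11711 and 15624 peaks and 2667 and 4804 genes. With P56 sample 1 as the only adult sample, an alternative chosen after seeing the data, there were 22001 and 24188 peaks and 6996 and 7527 genes. The loop against DCT comparison called 6 peaks and 45 genes when thinned, and 197 to 1879 peaks and 337 to 1877 genes when samples were left out (197 peaks without P0 sample 1, 326 without P0 sample 2, 337 genes without P56 sample 2). Against PCT it called 2298 peaks and 3185 genes when thinned, and 8376 to 27308 peaks and 3645 to 10252 genes when samples were left out.

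The log2 change turned for Esrrb (-0.08), Pax2 (0.34), Sall1 (-1.48) and Peg3 (-2.06) with the start site alone, and for Esrrg without TMM (-0.02) and when thinned (-0.04). Without P0 sample 1 the calls of Avpr2, Calcr, Cldn19, Foxa1, Pclaf, Peg3 and Sall1 were lost. Calls also ended, with the direction kept, for Cldn19, Irx1, Pou3f3, Sox9, Sall1, Nr3c1 and Npas2 when thinned, for Cldn10, Ptges, Hes1, Igf1r, Cpt1a, Nr3c2, Gcgr and Cdh1 with the start site alone, and for Cldn19, Sall1 and Peg3 without TMM. P21 past the midpoint was 69.9% and 84.5% at peaks called at 0.01. The motif difference, adult minus P0, was 2.93 (ESRR), 4.21 (NFI), -3.57 (TCF/LEF) and -1.06 (Six2 family) percentage points in whole peaks, and 2.33 (ESRR), 4.63 (NFI) and 2.00 (GRHL) in distal and intronic peaks. The cause of these shifts was not tested. Replicate numbers did not pair the samples (r = 0.07 over 89743 peaks between the differences of samples 1 and 2 at P0 and at P56). With the replicate number as a block there were 21179 and 25215 peaks, and 6009 and 7433 genes.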
